A study of Mus musculus with 2 samples.

Results

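The genes described here are 8 genes of the HoxD cluster and its neighbour Evx2: Hoxd3, Hoxd4, Hoxd8, Hoxd9, Hoxd10, Hoxd11, Hoxd12, Hoxd13 and Evx2. They were taken by name from the feature lists of 2 single-cell libraries, where 9 of 56982 features carried these names in each library. The libraries come from hindlimbs of mouse embryos of the FVB strain at E11.5, a stage when the hindlimb is a paddle of mesenchyme under ectoderm. Both embryos carried, at the H11 insertion site, a pair of reporters driven by the limb enhancer of Shh: the reference ZRS with mCherry and the ZRS404G>A allele with eGFP. In dual-enSERT-1 the label gives only these units. In dual-enSERT-2 the label also has an element B at both ends and an element SI between the units, and neither letter is spelled out. Each group held 1 library, so no value below has a replicate check and no test was made between libraries or cells. The libraries differ in construct, embryo and preparation, and these cannot be told apart.

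Hox genes encode homeodomain transcription factors that give cells their position along the body and limb axes. In the limb the HoxD genes are switched on in the order of their place in the cluster, which is called collinearity, and they are served by a regulatory landscape on either side. The landscape beyond Hoxd3 drives the early and proximal phase, and the landscape beyond Evx2 drives the digit phase, where Hoxd13 and Evx2 are strongest. Meis1 and Meis2 mark the proximal limb, Hoxa13 the future hand or foot, Pax9, Alx1 and Alx4 the anterior limb, Hand2 the posterior limb, and Shh the posterior signalling centre.

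The 9 genes lie together on chromosome 2. In GENCODE M39 on GRCm39 they span 74483335 to 74578786, or 95452 bases, and 8 of them, the Hoxd genes, are on the plus strand. Evx2, an even-skipped type homeobox gene, lies at one end on the minus strand, from 74483335 to 74489901, and its start faces that of Hoxd13 (74498654 to 74501943). Hoxd12 (74505357 to 74508049), Hoxd11 (74509901 to 74517360), Hoxd10 (74522230 to 74525449), Hoxd9 (74528008 to 74530552) and Hoxd8 (74534959 to 74538297) follow in that order. Hoxd4 (74542273 to 74559523) and Hoxd3 (74542271 to 74578786) overlap at the other end. Hoxd3 and Hoxd4 share 388 exonic bases on the same strand, and both share more with the transcript Gm28230 (2225 and 1154 bases). No source used here says how reads were divided among them, and the levels of Hoxd3 and Hoxd4 are uncertain. Hoxd11 shares 455 of its 5904 exonic bases, and Hoxd10 104 of 1854, with Gm28309 on the same strand. Hoxd8 shares 443 of 2944 with Hoxd3os1 on the opposite strand. Hoxd9, Hoxd12, Hoxd13 and Evx2 share none with another annotated gene.

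The 250 bases before the RefSeq starts of the 3 genes at the Evx2 end are shown, since these are the genes with the largest distal to proximal ratios below. They come from RefSeq's promoter windows on GRCm38.p6, read 5′ to 3′ in the direction of the gene. Capitals mark matches to the motifs searched.
Evx2, chr2:74659558-74659807, minus strand: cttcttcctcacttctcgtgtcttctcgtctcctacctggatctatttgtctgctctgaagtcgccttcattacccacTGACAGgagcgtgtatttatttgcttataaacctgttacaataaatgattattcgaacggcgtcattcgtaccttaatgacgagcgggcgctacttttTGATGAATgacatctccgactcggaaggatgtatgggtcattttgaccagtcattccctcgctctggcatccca
Hoxd13, chr2:74667975-74668224, plus strand: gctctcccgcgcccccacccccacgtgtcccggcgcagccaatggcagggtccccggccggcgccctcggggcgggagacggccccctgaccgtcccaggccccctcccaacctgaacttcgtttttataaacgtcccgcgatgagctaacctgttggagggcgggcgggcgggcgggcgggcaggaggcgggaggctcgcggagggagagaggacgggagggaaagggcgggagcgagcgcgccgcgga
Hoxd12, chr2:74674763-74675012, plus strand: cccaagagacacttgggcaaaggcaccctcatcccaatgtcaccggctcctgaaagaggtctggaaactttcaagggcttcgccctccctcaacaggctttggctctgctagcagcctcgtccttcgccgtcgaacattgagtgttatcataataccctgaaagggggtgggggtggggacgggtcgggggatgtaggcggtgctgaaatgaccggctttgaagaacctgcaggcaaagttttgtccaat
By exact match on GRCm39 the Evx2 window is chromosome 2, 74489902 to 74490151, the Hoxd13 window 74498319 to 74498568, and the Hoxd12 window 74505107 to 74505356. The windows differ in base composition. Hoxd13's has 74.4% G and C with 31 CpG pairs, Hoxd12's 55.6% with 10, and Evx2's 45.6% with 14, beside a median of 52.4% and 6 pairs over 32851 windows. The motifs were searched on both strands in 10 windows of the 9 genes, Hoxd11 having 2 starts. TGATNNAT, a site of paired PBX and HOX proteins, was found in 2 of the 10 windows, before Evx2 at 74 bases from the start and before the second start of Hoxd11, and in 7.68% of all windows. TGACAG, a MEIS site, was found in 1, before Evx2 at 172 bases from the start, and in 15.9% of all windows. CCAATAAA, a HOX13 site, and GACCACCCA, a GLI site, were in none of the 10, and in 1.02% and 0.225% of all windows. None of these letter patterns overlap. A match is only a run of letters, and no match says only that these letters are not in the window.

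The dual-enSERT-1 library held 298653282 UMIs (unique molecules) in 20508 barcodes and dual-enSERT-2 184301053 in 8885 barcodes, of which 16041 and 6472 cells passed the filters, with medians of 14000 and 25841.5 UMIs. The libraries shared 49 barcodes as deposited and 29 after the gene and mitochondrial filters. Mesenchyme-like cells were 91.3% of cells (14652) and 68.6% (4437), and erythroid-like cells 1.53% (246) and 25.3% (1638). Smaller classes, in the same library order, were muscle-like (457 and 68), ectoderm-like (425 and 172), endothelial-like (201 and 61) and macrophage-like (60 and 53). Mesenchyme-like cells carried all 9 of 9 markers of their list at 5 CPM or more in both libraries. RNA of erythroid cells was present in them, with a summed level of the 7 erythroid markers of 301 and 3848 CPM, and 5 of 7 and 6 of 7 of them at 5 CPM or more.

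Levels are given as CPM, a gene's share of all UMIs pooled over a group of cells, in the usual scaling of that unit, with an exact Poisson 95% interval for counting error only. The reads are from transcript 3′ ends and are not scaled by length, so a level is compared for the same gene between cells, not between genes. Among cell classes the genes of the cluster were highest in mesenchyme, with the exceptions of Hoxd4, Hoxd8, the barely detected Hoxd3, and Evx2 in dual-enSERT-2, where 1 UMI in macrophage-like cells gave 0.694 CPM. Hoxd11, a gene of the middle limb segment together with Hoxa11, stood at 209 CPM in mesenchyme of dual-enSERT-1 (207 to 211) and 177 CPM in dual-enSERT-2 (175 to 180). Its next level was in muscle-like cells, 67.4 CPM (62.6 to 72.6) and 80.1 CPM (68.8 to 92.8). Macrophage-like cells followed with 14.7 and 26.4 CPM, endothelial-like with 10.5 and 10.8 CPM, ectoderm-like with 9.91 and 2.45 CPM, and erythroid-like with 5.03 and 2.22 CPM. The intervals of macrophage- and endothelial-like cells overlapped in dual-enSERT-1 (8.70 to 23.2 and 8.04 to 13.6) and not in dual-enSERT-2 (18.7 to 36.2 and 6.99 to 15.95).

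Hoxd13, the digit gene whose mutation fuses and doubles digits, stood at 82.3 CPM (81.1 to 83.6) and 25.3 CPM (24.4 to 26.3) in mesenchyme of the 2 libraries. No other class passed 6.52 CPM in dual-enSERT-1 or 6.25 CPM in dual-enSERT-2. Hoxd12, its neighbour, was at 53.9 and 19.8 CPM, and Evx2 at 8.63 and 0.339 CPM, in mesenchyme of the 2 libraries. Hoxd10 and Hoxd9, genes of the proximal and middle limb, were at 46.7 and 53.8 CPM and at 38.2 and 52.9 CPM. Of the genes toward the Hoxd3 end, mesenchyme held Hoxd8 at 7.97 and 15.4 CPM, Hoxd4 at 3.69 and 9.95 CPM, and Hoxd3 at 0.238 and 0.456 CPM. Hoxd3 and Hoxd4 are best known for their part in the neck vertebrae.

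Hoxd8 was highest in endothelial-like cells of both libraries, at 26.3 CPM (22.3 to 30.9) and 18.6 CPM (13.5 to 25.0). In dual-enSERT-2 that interval includes the mesenchyme level. Hoxd4 was highest in muscle-like cells, at 9.85 CPM (8.04 to 11.95) and 16.6 CPM (11.7 to 22.8), above the mesenchyme interval in both libraries (3.44 to 3.96 and 9.38 to 10.55). These 2 genes therefore had another order over the classes than Hoxd9 to Hoxd13.

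**Figure D1:**
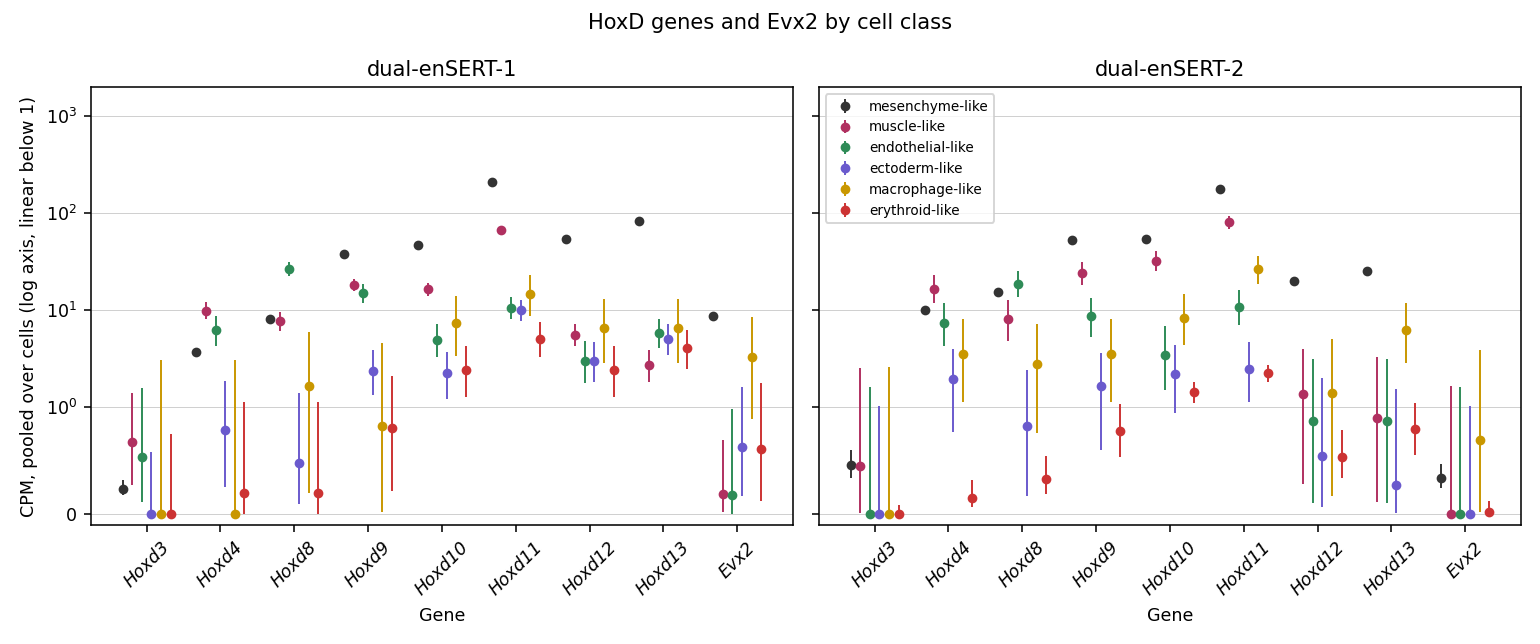
CPM of each gene pooled over the cells of each class (y axis, log scale and linear below 1 CPM) in the 2 libraries, with genes in cluster order on the x axis and bars for exact Poisson 95% intervals. Mesenchyme leads from Hoxd9 to Hoxd13, muscle-like cells hold Hoxd11 at 67.4 and 80.1 CPM, and Hoxd8 is highest in endothelial-like cells.

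Free RNA of other cells gives each droplet some UMIs, so the level in erythroid-like cells, which do not build the limb, was taken as a measured background. It was 15.7 CPM for the 9 genes together in the first library and 6.22 CPM in the second, against 450.3 and 355 CPM in mesenchyme. A gene was counted as above it where its interval lay above the erythroid-like interval in both libraries. That held for 8 of 9 genes in mesenchyme, all but Hoxd3, for 5 of 9 in muscle-like cells (Hoxd4, Hoxd8, Hoxd9, Hoxd10 and Hoxd11), for 4 of 9 in endothelial-like cells (Hoxd4, Hoxd8, Hoxd9 and Hoxd11) and for 0 of 9 in ectoderm-like cells. The endothelial count was 3 of 9, without Hoxd11, when cells needed 2000 genes or when doublets were kept. Macrophage-like cells were left out of these counts. Their Hoxd11 interval (8.70 to 23.2 and 18.7 to 36.2 CPM) also lay above the erythroid-like interval (3.25 to 7.42 and 1.81 to 2.70 CPM) in both libraries.

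Muscle-like cells differed from mesenchyme in the shape of the series. Their Hoxd9 level was 47.4% and 45.7% of the mesenchyme level and their Hoxd11 level 32.3% and 45.2%, while Hoxd12 was 10.3% and 6.80% and Hoxd13 3.25% and 3.54%. Prrx1, a mesenchyme marker, was 7.49% and 10.6% of its mesenchyme level in the same cells. In erythroid-like cells the same shares lay between 1.22% and 4.89% for Hoxd9, Hoxd11, Hoxd12, Hoxd13 and Prrx1. Hoxd13 in muscle-like cells rested on 28 and 2 UMIs, and Evx2 on 2 and 0. Summed over the 7 muscle markers, the muscle-like cells held 918 and 904 CPM.

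Every cell was thinned to 5000 UMIs, which left 13166 and 4093 mesenchyme-like cells. Hoxd11 was seen in 51.7% of them (50.8 to 52.6, exact binomial interval) in the first library and 49.1% (47.6 to 50.7) in the second. Hoxd13 was seen in 20.6% (19.9 to 21.3) and 8.31% (7.48 to 9.20). In erythroid-like cells, whose median depth before thinning was 19408.5 and 27306.5 UMIs beside 13796 and 25562 in mesenchyme, the shares were 2.85% and 1.16% for Hoxd11 and 1.22% and 0.490% for Hoxd13. Evx2 was seen in 3.46% and 0.0977% of mesenchyme-like cells and in 0 of 246 and 0 of 1633 erythroid-like cells, which allows shares of cells with a UMI of up to 1.22% and 0.184% by a floor of 3 cells, and of up to 1.49% and 0.226% by the exact binomial interval.

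The proximal to distal axis was read within mesenchyme-like cells that had a Prrx1 UMI and at least 5000 UMIs, 12833 and 4061 cells. Cells with a Meis1 or Meis2 UMI after thinning numbered 3550 (27.7%) and 1627 (40.1%), and cells with a Hoxa13 UMI 3085 (24.0%) and 379 (9.33%). Only 168 and 36 cells had both. Cells with Hoxa13 and no Meis are called distal below, and cells with Meis and no Hoxa13 proximal. These are groups by RNA content and hold no record of where a cell sat. From here on, a pair of levels gives the first-named group of cells and then the other, for dual-enSERT-1 and next for dual-enSERT-2. In pooled levels, fewer cells with a gene's RNA and less of it per cell cannot be told apart.

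Hoxd13 was at 183 CPM in distal and 10.9 CPM in proximal cells of dual-enSERT-1, and at 99.9 and 8.77 CPM in dual-enSERT-2. That is 16.9-fold (15.4 to 18.4, exact interval from the counts) and 11.4-fold (10.1 to 12.9). Hoxd12 was at 105 and 16.4 CPM and at 50.9 and 12.6 CPM, 6.42-fold (5.96 to 6.93) and 4.04-fold (3.58 to 4.57). Both genes were far above their proximal level in both libraries, with no overlap of counting intervals. Hoxd11 was at 283 and 106 CPM and at 257 and 135 CPM, 2.68-fold and 1.91-fold. Hoxd10 was at 53.95 and 29.7 CPM and at 61.3 and 44.2 CPM, 1.82-fold and 1.39-fold.

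From Hoxd9 on, the direction turned. Hoxd9 was lower in distal cells, at 17.7 against 43.1 CPM and 26.4 against 48.7 CPM. Hoxd4 was lower as well, at 1.72 against 4.69 CPM and 6.16 against 11.4 CPM. Hoxd8 was at 4.67 and 6.49 CPM in dual-enSERT-1 and at 13.6 and 13.3 CPM in dual-enSERT-2, where the interval of the ratio (0.845 to 1.24) includes 1. Evx2 was at 20.5 and 0.758 CPM in dual-enSERT-1, 27.1-fold (19.5 to 38.6). In dual-enSERT-2 it had 15 UMIs in distal cells and 0 in proximal cells, which is at least 21.2-fold higher by a floor of 3 counts over the proximal group. With the counting error of the distal UMIs included, the exact lower limit of the ratio was 15.2.

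On the log2 scale with a pseudocount of 1 CPM, the distal to proximal folds in the order Hoxd4, Hoxd8, Hoxd9, Hoxd10, Hoxd11, Hoxd12, Hoxd13 were -1.07, -0.40, -1.24, 0.84, 1.41, 2.61 and 3.96 in dual-enSERT-1. The folds of dual-enSERT-2 in that order were -0.80, 0.04, -0.86, 0.46, 0.93, 1.93 and 3.37. From Hoxd10 to Hoxd13 each gene had a larger fold than the neighbour toward Hoxd3, in both libraries. Hoxd9 was the gene out of order, below both its neighbours. Without Hoxd9 the folds rose from Hoxd4 to Hoxd13 in both libraries.

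A gene was called where its log2 fold reached 1 in size with the same sign in both libraries, among genes at 5 CPM or more in either group of both libraries. By that rule 2 of the 9 genes, Hoxd12 and Hoxd13, were called higher in distal cells, a direction in which 1.10% of 10464 genes were called. None was called lower. The 7 erythroid markers summed to 282 and 288.5 CPM and to 3866 and 4908 CPM in the distal and proximal cells, and over genes other than globin, mitochondrial and ribosomal protein genes the calls were the same 2 genes. Hoxd3, Hoxd4 and Evx2 were under the 5 CPM limit in a library and could not be called, here or by the single gates below. The median log2 fold of the 6 genes counted was 1.13 and 0.69, beside 0.00 over all genes counted in both libraries. The calls of Hoxd12 and Hoxd13 held under all alternative settings, with the log2 fold of Hoxd13 in dual-enSERT-2 between 2.93 and 4.38.

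**Figure D2:**
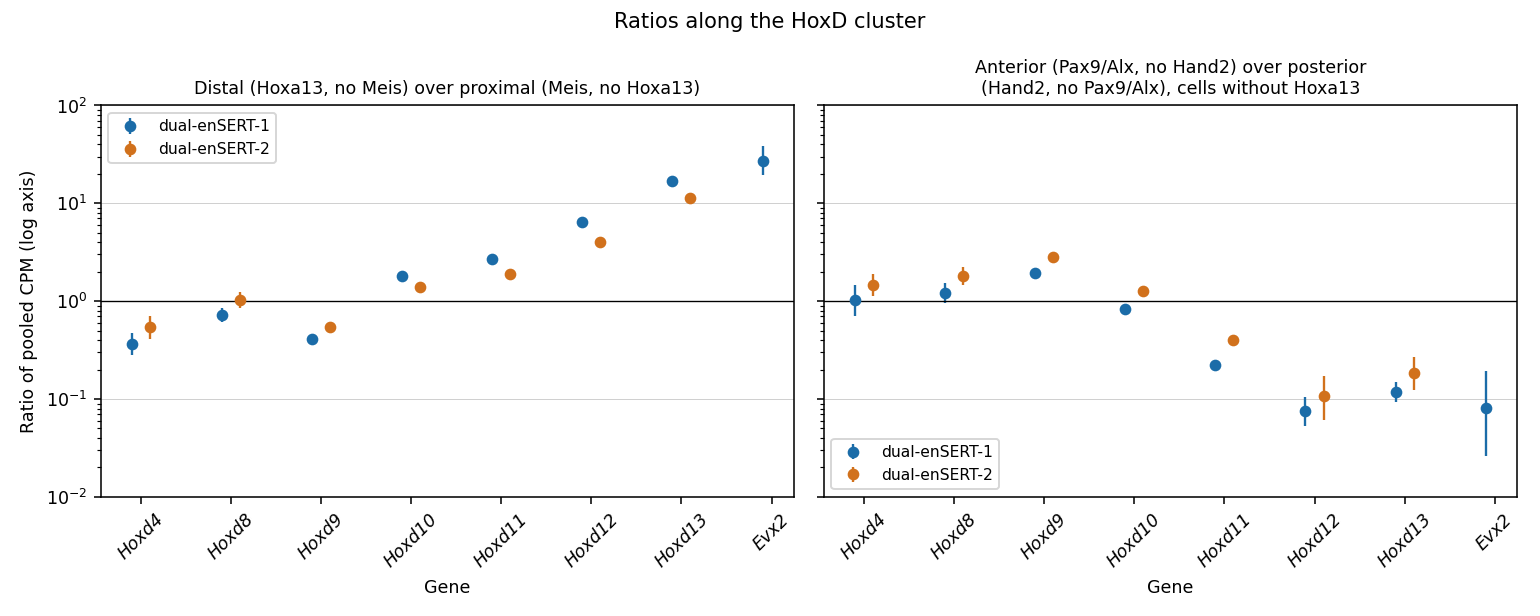
Ratio of pooled CPM (y axis, log scale) of distal over proximal cells on the left, and of anterior over posterior cells without Hoxa13 on the right, for genes in cluster order, with exact 95% counting intervals. Evx2 of dual-enSERT-2 is left out because a group had 0 of its UMIs. The left ratios climb from Hoxd9 to Hoxd13, to 16.9 and 11.4, and the right ratios drop from Hoxd9 to Hoxd12.

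The cells between these poles held intermediate levels of Hoxd12 and Hoxd13. In cells with neither Meis nor Hoxa13, 6366 and 2091 in number, Hoxd13 was at 60.4 and 24.0 CPM and Hoxd12 at 42.8 and 19.3 CPM. In the few cells with both, Hoxd13 was at 97.2 and 48.1 CPM and Hoxd12 at 65.4 and 39.6 CPM. For Hoxd13 the 4 groups had the same order in both libraries, from proximal through neither and both to distal. Hoxd9 was highest in cells with neither marker, at 46.8 and 61.4 CPM, and so was Hoxd8 at 10.7 and 17.4 CPM.

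**Figure D3:**
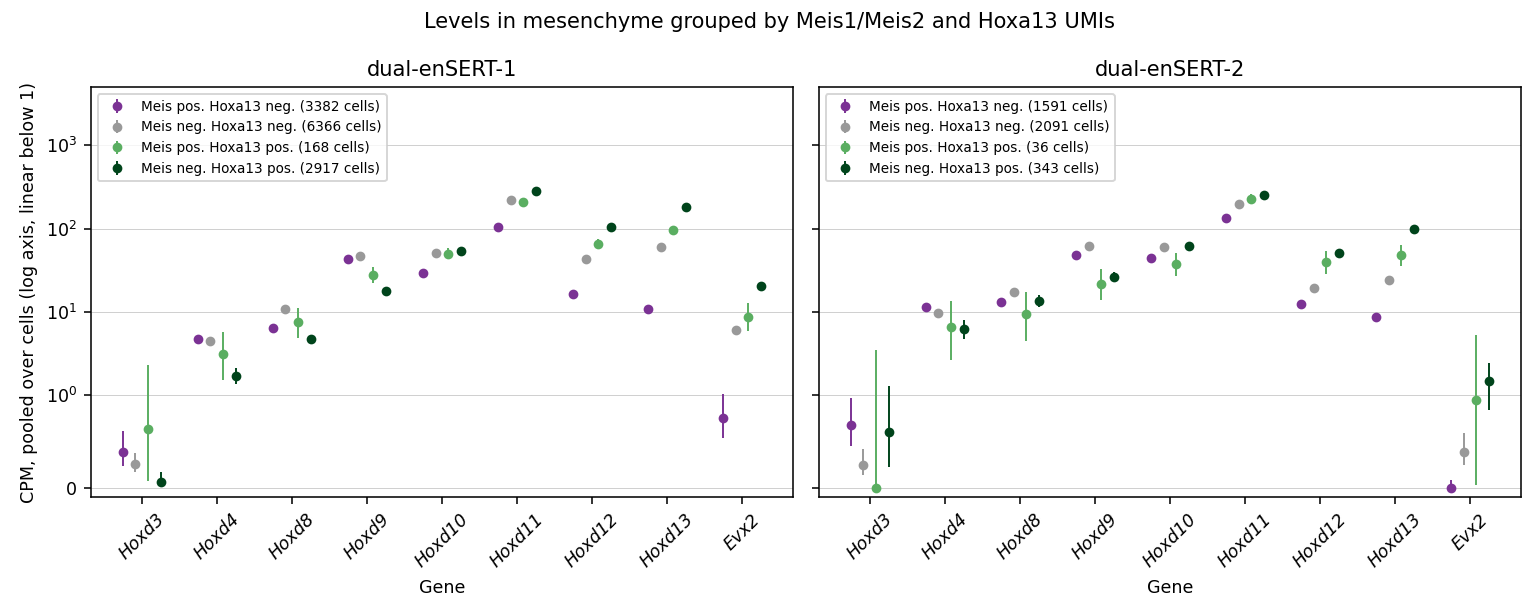
CPM (y axis, log scale and linear below 1 CPM) of each gene in mesenchyme cells grouped by Meis1 or Meis2 UMIs and Hoxa13 UMIs, with exact Poisson 95% intervals and cell numbers in the legend. Hoxd12, Hoxd13 and Evx2 are lowest in the Meis group and highest in the Hoxa13 group without Meis, and Hoxd9 has the reverse order between those groups.

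Each gate alone gave a part of this picture. Against Meis-negative cells, Meis-positive cells had Hoxd13 at 16.2 and 103 CPM in dual-enSERT-1 and at 9.72 and 35.4 CPM in dual-enSERT-2, and Hoxd13 was the 1 gene of the 9 called lower (0.463% of 10368 genes were). Hoxd12 was at 19.4 and 64.2 CPM and at 13.2 and 24.1 CPM, and its log2 fold of -0.82 in dual-enSERT-2 missed the limit. Hoxd9 was at 42.2 and 36.8 CPM and at 48.1 and 56.1 CPM, log2 folds of 0.19 and -0.22. Its direction changed with the gate, with -0.18 and -0.44 when 2 gate UMIs were required and 0.42 and 0.13 without thinning.

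Against Hoxa13-negative cells, Hoxa13-positive cells had Hoxd13 at 178 and 44.0 CPM and at 94.9 and 17.4 CPM, and Hoxd12 at 103 and 34.0 CPM and at 49.8 and 16.4 CPM. Both were called higher, 2 of the 9 genes where 0.472% of 10373 genes were. Hoxd9, at 18.3 and 45.6 CPM and at 26.0 and 55.9 CPM, was called lower, 1 of the 9 where 0.781% were. The Hoxd9 call ended under 4 alternatives, with a log2 fold of -0.73 in dual-enSERT-2 when gates were read without thinning. Hoxd10 differed little, at 53.7 and 44.3 CPM and at 59.1 and 53.2 CPM. Evx2 was at 19.8 and 4.33 CPM and at 1.44 and 0.221 CPM, 4.58-fold (4.15 to 5.06) and 6.49-fold (3.19 to 12.9).

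Hoxa11, a gene of the middle segment, was used to look at cells outside the Hoxa13 group. Cells with Hoxa11 and no Hoxa13 numbered 3023 and 1279. Their Hoxd11 level was 212 CPM against 172 CPM in cells with neither, and 191 against 158 CPM in dual-enSERT-2, a ratio of 1.24 (1.21 to 1.27) and 1.21 (1.17 to 1.25). Hoxd13 was at 20.4 and 54.7 CPM in dual-enSERT-1 but at 17.3 and 17.5 CPM in dual-enSERT-2, where the interval of the ratio was 0.891 to 1.09. The lower Hoxd13 level in Hoxa11 cells was therefore seen in 1 library only, and the difference between libraries was not tested.

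The anterior to posterior axis gave the second series. Pax9, Alx1 or Alx4 UMIs marked 764 (5.95%) and 253 (6.23%) of these mesenchyme cells. In these cells Hoxd12 was at 10.4 CPM against 55.4 CPM in the other mesenchyme, and at 7.46 against 20.6 CPM in dual-enSERT-2. Hoxd13 was at 18.6 and 84.5 CPM and at 11.9 and 26.1 CPM. Hoxd12 and Hoxd13 were called lower, 2 of the 9 genes where 0.135% of 10377 genes were. These calls rest on dual-enSERT-2, whose log2 folds were -1.35 for Hoxd12 and -1.07 for Hoxd13, and neither gene was called when gates were read without thinning (-0.98 and -0.69). Hoxd9 was higher in the marked cells, at 56.8 against 36.95 CPM and 81.9 against 51.0 CPM, or 1.54-fold (1.42 to 1.66) and 1.61-fold (1.47 to 1.75). The 7 erythroid markers summed to 5488 CPM in the marked and 3719 CPM in the other mesenchyme of dual-enSERT-2, and to 275 and 293.5 CPM in dual-enSERT-1. With globin, mitochondrial and ribosomal protein genes left out of the CPM, the log2 folds of Hoxd12 and Hoxd13 in dual-enSERT-2 were -1.37 and -1.09, both still past the limit.

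The axis was read again in cells with no Hoxa13 UMI after thinning, which can still hold Hoxa13 RNA, since 5061 and 1001 cells had a Hoxa13 UMI without thinning and 3085 and 379 with it. There, 564 and 194 cells had a Pax9 or Alx UMI and no Hand2 UMI, and 4140 and 1379 cells had Hand2 and none of the anterior genes. Hoxd12 was at 4.30 CPM in the anterior and 56.6 CPM in the posterior cells of dual-enSERT-1, and at 3.06 and 28.8 CPM in dual-enSERT-2. That is a ratio of 0.0760 (0.0534 to 0.105) and 0.106 (0.0605 to 0.173). Hoxd13 was at 8.25 and 69.4 CPM and at 5.54 and 29.96 CPM, a ratio of 0.119 (0.0927 to 0.150) and 0.185 (0.123 to 0.267). Hoxd11 was at 59.2 and 265 CPM and at 84.5 and 211 CPM, a ratio of 0.223 (0.204 to 0.244) and 0.401 (0.363 to 0.441). All 3 genes were lower in anterior cells in both libraries, with Hoxd11 the least so.

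Those 3 were called lower, of the 9 genes, of which 6 were counted, in a direction in which 0.548% of 10400 genes were called. Evx2 was at 0.581 and 7.12 CPM in dual-enSERT-1. In dual-enSERT-2 it had 0 UMIs in anterior cells and 0.455 CPM in posterior cells, and no fold is given. Hoxd9 was higher in anterior cells, at 61.4 and 31.8 CPM (1.93-fold, 1.75 to 2.12) and at 93.3 and 33.2 CPM (2.81-fold, 2.53 to 3.13). Its log2 fold of 0.93 in dual-enSERT-1 missed the limit. Hoxd10 was the gene where the direction turned, at 40.7 and 48.6 CPM in the first library and at 61.9 and 48.6 CPM in the second, with log2 folds of -0.25 and 0.35. Hoxd8 was at 9.88 and 8.17 CPM and at 22.2 and 12.2 CPM, and Hoxd4 at 4.30 and 4.15 CPM and at 14.2 and 9.72 CPM. The ratio of Hoxd12 was below that of Hoxd13 in both libraries, but their intervals overlapped. With 2 gate UMIs required, only 12 anterior cells of dual-enSERT-2 were left, too few to order the 2 genes. Their log2 folds there, -5.27 for Hoxd12 and -5.43 for Hoxd13, depend on the pseudocount for their size. The 7 erythroid markers summed to 4767 CPM in the anterior and 3282 CPM in the posterior cells of the second library, and to 279.7 and 296 CPM in the first. Hoxd11, Hoxd12 and Hoxd13 were also called lower with globin, mitochondrial and ribosomal protein genes left out of the CPM.

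Within the Hoxa13 group, anterior cells numbered 79 and 7, too few in dual-enSERT-2 for a comparison. In dual-enSERT-1 the 79 cells had Hoxd13 at 34.7 CPM against 206 CPM in the 1797 posterior cells, a ratio of 0.169 (0.123 to 0.225), and Hoxd12 at 18.9 against 122 CPM, a ratio of 0.155 (0.100 to 0.229). Hoxd9 was at 40.0 and 14.97 CPM. Hoxd12 and Hoxd13 were thus several times lower in anterior cells within the Hoxa13 group of that library as well.

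Hand2, which activates Shh, gave the posterior side on its own. Hand2-positive cells, 6058 and 1631, had Hoxd12 at 77.5 CPM against 29.4 CPM in Hand2-negative cells, and at 33.2 against 10.5 CPM in dual-enSERT-2. Hoxd13 was at 114 and 49.2 CPM and at 41.6 and 14.1 CPM. Both were called higher, 2 of the 9 genes where 0.194% of 10307 were. The size of these folds depended on how the gate was read: the log2 fold of Hoxd12 in dual-enSERT-1 was 1.37 at 5000 UMIs, 0.80 at 2000 UMIs and 3.101 without thinning. Neither gene was called at 2000 UMIs or with 2 Hand2 UMIs required.

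Shh-positive cells, grouped by an Shh UMI after thinning as a marker of the posterior signalling centre, were 308 (2.40%) and 107 (2.64%). Hoxd13 was at 149 CPM in them against 78.6 CPM in the other mesenchyme of dual-enSERT-1, and at 74.8 against 23.7 CPM in dual-enSERT-2. Hoxd12 was at 89.6 and 51.6 CPM and at 54.1 and 18.7 CPM. The ratios were 1.90 (1.77 to 2.04) and 3.16 (2.76 to 3.60) for Hoxd13 and 1.74 (1.58 to 1.90) and 2.90 (2.47 to 3.37) for Hoxd12. Neither was called, because dual-enSERT-1 fell short of the limit. Hoxd11 was at 216 and 210 CPM and at 177 and 178 CPM, with ratio intervals of 0.968 to 1.09 and 0.913 to 1.08 that include 1. Hoxd9 was at 14.3 and 38.8 CPM and at 15.3 and 54.1 CPM, and was called lower, 1 of the 9 genes where 1.09% of 10444 were. Evx2 was at 17.9 and 8.28 CPM in dual-enSERT-1, and at 2.39 and 0.280 CPM in dual-enSERT-2, where 8 UMIs lay in Shh-positive cells. The log2 fold in that library was 1.41, and -0.43 when 2 gate UMIs were required, which left 30 Shh-positive cells. At so few UMIs the pseudocount of 1 CPM shapes the fold, and the change of sign is not read as a lower level.

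The summed level of the 7 erythroid markers was 7185 CPM in Shh-positive and 3726 CPM in Shh-negative cells of dual-enSERT-2, and 302 and 292 CPM in dual-enSERT-1. Over genes other than globin, mitochondrial and ribosomal protein genes, the log2 fold of Hoxd9 was -1.77 in dual-enSERT-2, beside -1.76 over all genes. All 7 erythroid markers reached 5 CPM in the Shh-positive cells of dual-enSERT-2 and 6 of 7 in the others. Macrophage markers (9 genes, 6 of them at 0 in Shh-positive cells) summed to 2.99 and 3.53 CPM and muscle markers (7 genes, all at 0 in Shh-positive cells) to 0.00 and 0.560 CPM in the same groups of dual-enSERT-2.

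Of the Shh-positive cells, 183 of 308 and 26 of 107 also had a Hoxa13 UMI. Within the Hoxa13 group, Shh-positive and Shh-negative cells had Hoxd13 at 167 and 179 CPM in dual-enSERT-1 and at 109 and 93.8 CPM in dual-enSERT-2. The ratios of 0.933 (0.855 to 1.02) and 1.16 (0.923 to 1.45) both include 1. Hoxd12 was at 96.5 and 103 CPM and at 54.6 and 49.4 CPM, with intervals of 0.834 to 1.05 and 0.790 to 1.51. Hoxd11 was lower in the Shh-positive cells, at 213 and 283 CPM and at 182 and 260 CPM, a ratio of 0.753 (0.698 to 0.812) and 0.700 (0.587 to 0.828). Hoxd10 was at 39.8 and 54.7 CPM and at 40.6 and 60.5 CPM, a ratio of 0.728 (0.607 to 0.866) and 0.672 (0.456 to 0.959). None of the 9 genes was called within the Hoxa13 group, where 1.11% of 10462 genes were called in either direction. Only 5 of the 9 were counted there, Hoxd9, Hoxd10, Hoxd11, Hoxd12 and Hoxd13.

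The restriction to Hoxa13 cells that also had Hand2 left 132 and 21 Shh-positive cells. Hoxd13 was then at 165 and 207 CPM in dual-enSERT-1 (ratio 0.798, 0.720 to 0.882) and at 122 and 113 CPM in dual-enSERT-2 (ratio 1.08, 0.825 to 1.38). Hoxd11 was at 204 and 311 CPM and at 190 and 257 CPM. The Hoxd11 interval lay below 1 in both libraries, and that of Hoxd13 in dual-enSERT-1 only.

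Neighbouring genes were also seen in the same cells. At 5000 UMIs per cell, Hoxd12 and Hoxd13 were both seen in 8.96% of Prrx1-positive mesenchyme of dual-enSERT-1 (8.47 to 9.47, 1150 cells), 2.46 times the product of their shares. In dual-enSERT-2 it was 2.34% (1.90 to 2.85, 95 cells), 3.49 times the product. For Hoxd11 with Hoxd13 the ratio was 1.43 and 1.51, and for Hoxd10 with Hoxd13 1.22 and 1.197. For Hoxd9 with Hoxd13 it was 0.463 and 0.447 (205 and 31 cells), for Hoxd8 with Hoxd13 0.450 and 0.544, and for Hoxd4 with Hoxd13 0.281 and 0.536 (15 and 9 cells). The ratio thus passed from above 1 to below 1 between Hoxd10 and Hoxd9. Hoxd13 with Evx2 reached 3.42 in dual-enSERT-1 (311 cells), and in dual-enSERT-2 only 2 cells had both.

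Within the Hoxa13 group the ratios were 1.35 and 1.82 for Hoxd12 with Hoxd13 and 1.14 and 1.06 for Hoxd11 with Hoxd13, both nearer to 1 than over all mesenchyme. For Hoxd9 with Hoxd13 they were 0.702 and 0.418, on 89 and 5 cells. Cells with UMIs of all 5 genes from Hoxd9 to Hoxd13 numbered 18 in the first library and 0 in the second. Cells with none of the 5 were 27.8% and 28.0%, and made up 47.0% and 37.6% of proximal cells but 13.03% and 13.7% of distal cells. These shares depend on depth: cells that hold a gene's RNA can show no UMI at 5000.

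**Figure D4:**
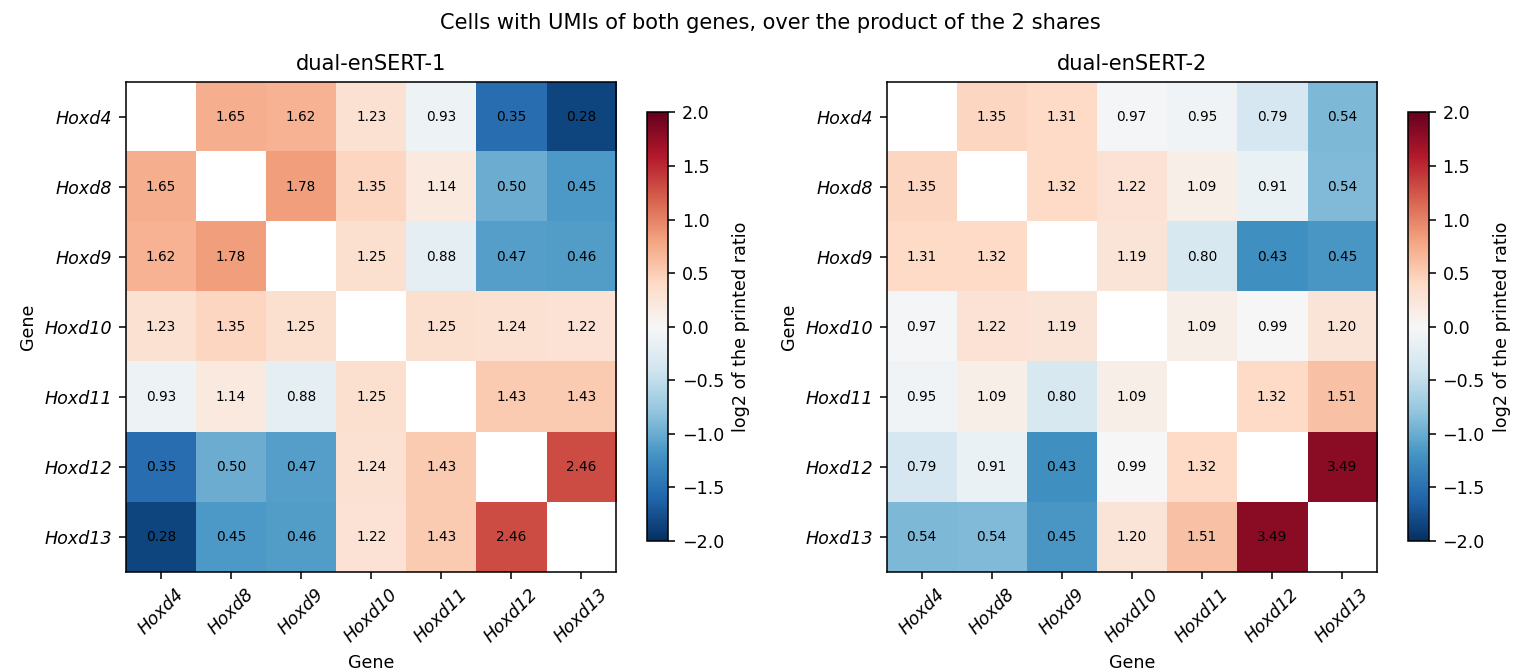
Ratio of the share of cells with UMIs of both genes to the product of the 2 shares (printed, and coloured on a log2 scale) in Prrx1-positive mesenchyme thinned to 5000 UMIs per cell, with genes on both axes. Pairs among Hoxd10 to Hoxd13 lie at 0.991 or above in both libraries, and Hoxd13 with Hoxd4, Hoxd8 or Hoxd9 lies below 0.55.

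Across the 17 and 10 mesenchyme-like clusters of the 2 libraries, which were made without these 9 genes, Hoxd13 ranged from 5.27 to 242 CPM and from 2.01 to 120 CPM. Hoxd12 ranged from 4.12 to 147 CPM and from 0.906 to 65.5 CPM. Hoxd10 varied less, from 17.5 to 74.4 CPM and from 35.1 to 63.8 CPM. As a description over clusters, which share library and normalization, Pearson's r of log2(CPM + 1) between Hoxd12 and Hoxd13 was 0.91 and 0.92, between Hoxd9 and Hoxd13 -0.74 and -0.58, and between Hoxd8 and Hoxd9 0.91 and 0.87. Hoxd10 had r of 0.27 and 0.27 with Hoxd13.

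Ranked by the smaller r of the 2 libraries among 7743 genes, those most like Hoxd13 were 9530018H14Rik (0.91 and 0.89), Hey1 (0.89 and 0.84), Tfap2b (0.96 and 0.83), Lmo2 (0.94 and 0.83) and its paralog Hoxa13 (0.89 and 0.82). Those most like Hoxd9 were Gas1 (0.76 and 0.86), a receptor component of hedgehog signalling, Arhgap29 (0.74 and 0.77), Pcdh19 (0.78 and 0.74), Mme (0.86 and 0.73) and Lancl1 (0.86 and 0.72).

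Other genes of the pathway were read from lists. Of the 10 HoxA and HoxC paralogs, 8 were counted in the distal to proximal comparison, and Hoxa13, which opened the gate, was the only one called, in a direction in which 1.10% of all genes were. Hoxa9 was at 161 and 145 CPM and at 148 and 168 CPM in distal and proximal cells, and Hoxa10 at 272 and 275 CPM and at 282 and 282 CPM. These 2 genes were thus near their proximal level, unlike Hoxd9, but they do not stand for the list. The median log2 fold of the 8 counted paralogs was -0.667 in the first library, lower in distal cells as for Hoxd9. It was 0.275 in the second, beside medians over all genes of 0.001 and -0.001. Hoxc11 was called lower in anterior cells outside the Hoxa13 group, at 30.2 and 80.0 CPM and at 26.6 and 71.9 CPM, the 1 paralog of 8 counted that was, against 0.548% of all genes.

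TALE proteins, the DNA-binding partners of Hox proteins, had 7 of 8 genes counted in anterior and posterior cells outside the Hoxa13 group, and Meis2 was the 1 called, lower in anterior cells, where 0.548% of genes were, with log2 folds of -1.20 and -1.39. A list of 9 genes in or beside the landscapes included Hoxd1. Of these, 7 were counted, and none was called in the distal to proximal or the anterior to posterior comparison. Lnpk, next to Evx2, was at 92.0 and 43.3 CPM in distal and proximal cells of dual-enSERT-1 and at 46.3 and 29.6 CPM in dual-enSERT-2, and Mtx2, beyond the other end, at 111 and 99.5 CPM and at 134 and 133 CPM. Of 13 chromatin regulators, among them the Polycomb genes Ezh2, Eed and Suz12, all were counted, none was called in either comparison, and their median log2 fold lay between -0.04 and 0.00. Of 8 limb patterning genes, 7 were counted. Shh was called higher in distal cells, where 1.10% of all genes were. Shh, its targets Ptch1 and Gli1, and the gate gene Hand2 were called lower in anterior cells, where 0.548% were. Ptch1 there was at 37.1 and 188 CPM and at 53.3 and 197 CPM.

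Between the libraries the genes at the Evx2 end differed most. Over all Prrx1-positive mesenchyme, Evx2 was at 8.54 CPM in the first and 0.344 CPM in the second library, 24.8-fold (18.0 to 35.2). Hoxd13 was at 80.5 and 25.2 CPM, 3.19-fold (3.07 to 3.32), and Hoxd12 at 52.7 and 19.8 CPM, 2.67-fold (2.55 to 2.79). Hoxd11 was at 210.2 and 178 CPM, Hoxd10 at 46.8 and 53.8 CPM, Hoxd9 at 38.2 and 52.9 CPM, Hoxd8 at 8.11 and 15.4 CPM and Hoxd4 at 3.78 and 10.0 CPM. The log2 ratios climbed in cluster order over these 8 genes, from -1.21 for Hoxd4 through -0.85, -0.46, -0.20, 0.24, 1.37 and 1.64 to 2.83 for Evx2. With a pseudocount of 5 CPM that of Evx2 was 1.34, no longer above Hoxd13.

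Past the 2-fold limit were 4 of the 9 genes, Hoxd12, Hoxd13 and Evx2 higher and Hoxd4 lower in dual-enSERT-1, where 3.68% of 10953 genes were past it in either direction. The Hoxd4 call ended with a pseudocount of 5 CPM, and both Hoxd4 and Evx2 dropped out with 20 CPM to be counted. The median log2 ratio of all these genes was 0.04. Evx2 and Hoxd4 reached the 5 CPM limit in the library where they were higher, and not in the other. The share of Hoxa13-positive cells moved with these values, 24.0% beside 9.33%, as did Hoxa13 itself at 84.1 and 26.2 CPM. Their part in the result was not tested beyond the comparison within cell groups below, and construct, embryo and preparation cannot be told apart.

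Part of the series was still present within the cell groups. Among distal cells Hoxd13 was at 183 and 99.9 CPM, 1.84-fold (1.72 to 1.96), Hoxd12 at 105 and 50.9 CPM, 2.06-fold (1.89 to 2.26), and Evx2 at 20.5 and 1.49 CPM, 13.8-fold (8.31 to 24.7). Hoxd8 was at 4.67 and 13.6 CPM and Hoxd4 at 1.72 and 6.16 CPM there. Among proximal cells Hoxd13 was at 10.9 and 8.77 CPM, 1.24-fold (1.09 to 1.42), and Hoxd12 at 16.4 and 12.6 CPM, 1.30-fold (1.16 to 1.45). The ratio of Hoxd13 was smaller in proximal than in distal cells, and this difference was not tested. Evx2 had 37 UMIs in proximal cells of dual-enSERT-1 (0.758 CPM) but none in dual-enSERT-2, at least 10.8-fold higher by a floor of 3 counts, with an exact lower limit of 8.36. Among Shh-positive cells Hoxd13 was at 149 and 74.8 CPM, 1.995-fold (1.73 to 2.31), while Hoxd9 was at 14.3 and 15.3 CPM with an interval of the ratio from 0.649 to 1.36.

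**Figure D5:**
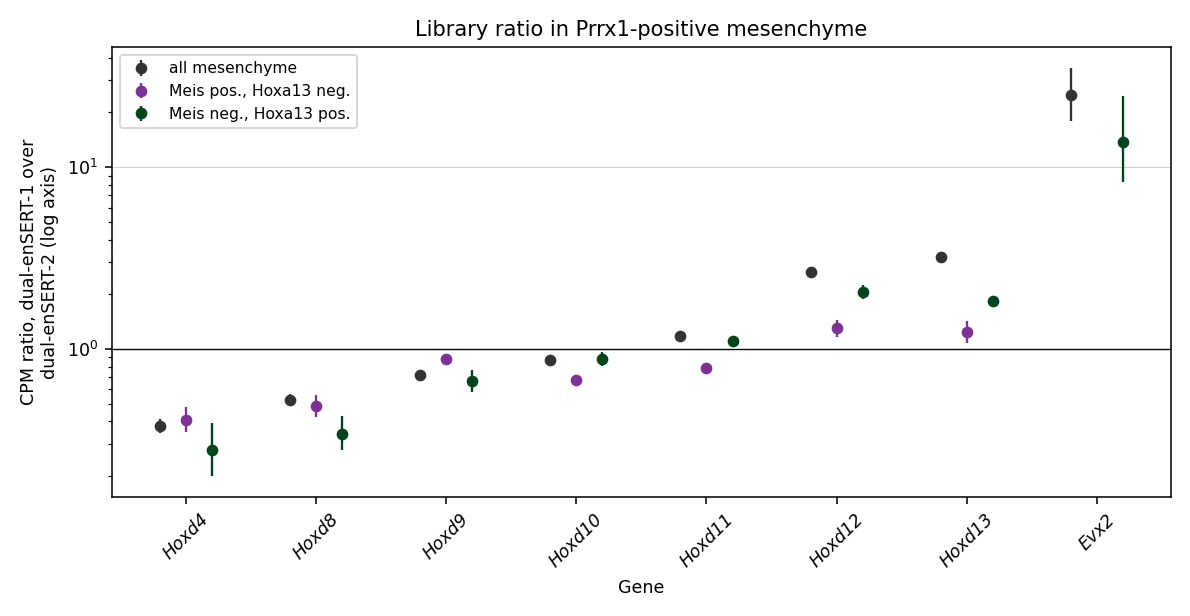
CPM ratio of dual-enSERT-1 over dual-enSERT-2 (y axis, log scale) for genes in cluster order, in all Prrx1-positive mesenchyme and in its proximal (Meis) and distal (Hoxa13) cells, with exact 95% counting intervals. The ratio climbs from Hoxd4 to Evx2 in all mesenchyme, where it reaches 24.8, and Evx2 has no proximal ratio because dual-enSERT-2 had 0 UMIs there.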

How the data were processed

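Single-cell RNA of 2 libraries was read from the deposited UMI counts, 1 matrix per library; counts are unnormalized, per the file headers, which name Cell Ranger 7.0.1. Other names come from the submitters' processing notes: mm39 as the build, Seurat 4, and Cell Ranger in another version, 3.1.0, so the version behind the counts is uncertain. Whether introns or strand were used is not given in the sources used here. A barcode needed 1000 genes or more and no more than 10% of its UMIs from mitochondrial genes; doublets called by Scrublet at an expected 8% were then removed (1749 and 211 barcodes, 9.83% and 3.16%). Cells were clustered per library without the 9 genes, eGFP, mCherry and Shh. Clustering used Scanpy 1.11.5 and igraph 0.11.9 with 2000 variable genes, 30 components, 15 neighbours and Leiden resolution 1. Clusters were then named from marker lists. A class may therefore differ from the study's own. A cluster of 43 cells in dual-enSERT-2 stayed unnamed.

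Cells were thinned to 5000 UMIs to read gates and shares, while levels used all UMIs. Sums and intervals used pandas 2.3.3, SciPy 1.17.1 and NumPy 2.4.6 in Python 3.11.15, with scikit-learn 1.9.0 for components and matplotlib 3.10.9 for plots. Intervals are exact at 95% and cover counting error only. With 1 library per group no test was possible, and a gene was called at an absolute log2 fold of 1 (pseudocount 1 CPM) in the same direction in both libraries, or, between libraries, in their single ratio. The code was tested on simulated data. The genes and lists were chosen with earlier results of these data known. Named genes are the 9 genes, the gate genes, members of the lists, and the 5 genes most like Hoxd13 and Hoxd9 among those at 20 CPM or more. Homeodomain sequences are not analysed here.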

Additional observations from a re-analysis of the deposited data

Results flagged for a closer look

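The 9 genes were also present in barcodes left out of the comparisons as reported. Doublets entered only the alternative setting in which they were kept. In the 1749 barcodes of dual-enSERT-1 called doublets their summed level was 404.1 CPM (399 to 409), and in the 211 of dual-enSERT-2 it was 211 CPM (203 to 220). Both lie below the mesenchyme of the same library (450.3 and 355 CPM) and above its erythroid-like cells (15.7 and 6.22 CPM). The 43 cells of the unnamed cluster of dual-enSERT-2 held 48.2 CPM (20.8 to 95.03), from 8 UMIs, of which 5 were of Hoxd9 and 3 of Hoxd8. These levels were picked out because they are signal in barcodes left out of the comparisons as reported.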

How the results depend on the processing

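Of 1728 recomputed log2 folds of the 9 genes, over 153 results, 1441 stayed within a counting interval of the reported value. Another 286 moved outside it, and 1 turned from a fold past the 2-fold limit to the other sign. This interval runs between opposite exact limits of the groups compared and is wider than the ratio intervals given above. In all 58 changed sign, 18 of them of Hoxd3 and 12 of Hoxd8, and 57 had been under 2-fold. The exception was Evx2 in Shh-positive cells of dual-enSERT-2, at -0.43 with 2 gate UMIs required and 1.41 as reported. The -0.43 came from 30 Shh-positive cells, too few to read as a lower level. With 2 gate UMIs, 0 of the 9 genes were called higher by Hand2 (2 as reported) and 1 lower in distal cells (0). Also, 1 was called higher in anterior cells outside Hoxa13 (0), which numbered 12 in dual-enSERT-2 at that setting. At 2000 UMIs, 0 were called higher by Hand2, 1 higher in those anterior cells, 0 lower by Hoxa13 (1) and 1 lower by Pax9/Alx (2). At 10000 UMIs, 0 were lower by Hoxa13 and 1 lower by Pax9/Alx. Without thinning, 0 were lower by Hoxa13, 0 by Pax9/Alx and 1 by Hand2 (0). With a pseudocount of 5 CPM, 0 were lower by Hoxa13, 1 by Pax9/Alx and 0 between libraries (1). With 20 CPM to be counted 0 were lower between libraries, and Evx2 left the genes called higher there. Hoxd11 joined the genes called higher in distal cells and lower by Pax9/Alx with 2 gate UMIs, the latter with 12 marked cells in dual-enSERT-2. It also joined those called higher by Hand2 without thinning, and higher in distal cells with Meis1 alone as the Meis gate. In Shh-positive cells 1 was called higher (0) with cells weighted alike, and 1 without the cells above the upper quartile of UMIs, an alternative chosen after seeing the data. The cause was not tested. The ratio of joint detection of Hoxd12 and Hoxd13 was 2.08 and 2.79 in dual-enSERT-1 at 10000 and 2000 UMIs, and 4.55 in dual-enSERT-2 at 2000. That of Hoxd9 and Hoxd13 in dual-enSERT-1 was 0.585 and 0.358 at 10000 and 2000 UMIs.

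Over all genes, the number called higher and lower ranged over the alternatives as follows. By Meis it was 37 to 90 higher (71 as reported) and 25 to 62 lower (48), by Hoxa13 28 to 70 (49) and 43 to 95 (81), by Pax9/Alx 4 to 28 (11) and 6 to 74 (14), and by Shh 42 to 97 (70) and 55 to 172 (114). By Hand2 it was 9 to 37 (20) and 7 to 24 (19), in distal cells 66 to 142 (115) and 77 to 249 (158), in anterior cells outside Hoxa13 31 to 91 (56) and 35 to 105 (57), and by Shh within Hoxa13 26 to 92 (49) and 24 to 205 (67). Between libraries it was 143 to 390 (331) and 35 to 94 (72). The upper ends by Pax9/Alx, in anterior cells and by Shh within Hoxa13 came with 2 gate UMIs. That setting left 12, 12 and 3 marked cells in dual-enSERT-2, in that order. No paired analysis was possible because each group holds 1 library. The gate comparisons set cells of the same library against each other and are given per library. Depth limits Hoxd3, Evx2 of dual-enSERT-2 and every gene in the smaller classes, where levels rest on few UMIs.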

Other observations

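Muscle-like cells kept several middle genes of the cluster beside Hoxa11. Hoxa11 was at 70.2% and 99.4% of its mesenchyme level in them, and Hoxd10 at 34.9% and 59.9%, while Hoxa13 was at 12.7% and 6.85%. Their Hoxd12 in dual-enSERT-1 came to 58 UMIs over 457 cells, but after thinning only 2 of 452 cells had one.

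Ranked over clusters in the same way as above, and named after their values were seen, the genes most like Hoxd12 were Hdnr (r 0.79 and 0.78), the reporter eGFP (0.77 and 0.77), Hand2 (0.77 and 0.79), the reporter mCherry (0.77 and 0.75) and Sinhcaf (0.75 and 0.78). These are descriptions over 17 and 10 clusters that share library and normalization.

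Hoxc11 differed between libraries in its distal to proximal ratio. It was at 22.2 CPM in distal and 82.9 CPM in proximal cells of dual-enSERT-1, a ratio of 0.267 (0.2499 to 0.285), and at 57.7 and 52.7 CPM in dual-enSERT-2, a ratio of 1.09 (0.998 to 1.2). The difference was not tested.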
